A study of Rattus norvegicus with 18 samples.

Results

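Light damage (LD) of the retina was examined by setting the 3 LD arrays against the 3 Control arrays of a series of 18 arrays in 6 groups. Members were taken by their labels: every array labelled as bright light without pretreatment, and every untreated Control array. All 29214 probe sets of the table were then described. The LD animals were adult Sprague Dawley rats, an albino strain, of postnatal day 80 to 120, reared in cyclic light of 5 lux, dark adapted overnight and then kept for 24 h under white fluorescent light, with the tissue taken when the light ended. Control animals were of the same strain, age and rearing and had no bright light, and both groups ate the vegetable matrix that served elsewhere in the series as the vehicle for saffron. The light is given as 100 lux in the source names of the LD arrays and as 1000 lux in their descriptions and in the study's methods. Each array held RNA of the whole retina of a single eye, each from a different animal. Both sexes were used in each group, but the sex belonging to an array is not given. The p-values rest on the spread between few animals, pooled within the 6 groups over all 18 arrays.

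In albino rodents bright light bleaches rhodopsin in the rods without the shade of eye pigment, and long exposure damages and kills photoreceptors. Müller cells, the radial glia that span the retina, are known to answer such injury with the intermediate filament Gfap. Leukaemia inhibitory factor and its relatives act on them through the shared receptor gp130 and the transcription factor Stat3. Microglia, the resident macrophages, are drawn to dying photoreceptors by chemokines.

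Levels are log2 intensities as the authors summarised them, so that a difference of 1 is 2-fold. A difference is LD minus Control and carries its standard error (SE), a group level carries its SD, and n = 3 arrays in each group throughout. Called below are probe sets with a two-sided adjusted p under 0.05 in a limma fit of all 18 arrays, after Benjamini-Hochberg adjustment over the whole table. An exact permutation test of 3 arrays against 3 cannot give a p below 0.1 and was not used to call genes.

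The LD and Control arrays had median log2 levels of 6.12 to 6.17. Of the probe sets, 15310 carried 1 gene symbol, 323 carried several and 13581 carried none, and the symbols stood for 14506 genes. Retinal markers were bright, with rod markers at mean log2 levels of 12.52, 12.51 and 12.07 on the LD arrays and 12.65, 12.79 and 12.67 on the Control arrays. Lens genes differed between arrays of the same group. Their mean log2 level was 12.05, 9.72 and 12.03 on LD 1, LD 2 and LD 3, and 10.02, 9.87 and 10.34 on the Control arrays, so that only LD 2 of the LD arrays lay at the Control level. All 13 measured lens genes had positive differences, with a median of 0.91, and 0 of 13 were called. With LD 2 as the only LD array the median was -0.32. Pigment epithelium genes had list means 0.82, 0.29 and 0.99 log2 units above the Control mean on the LD arrays, while the Control arrays lay at 0.48, -0.52 and 0.04 from it. Markers of T cells stood at mean log2 levels of 4.39 to 4.60 and those of neutrophils at 3.97 to 4.29 over the 6 arrays.

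Light changed 325 probe sets (1.11% of all), of which 245 rose (0.839%) and 80 fell (0.274%). More than 2-fold changes made up 155 of them (0.531%), and the other 170 (0.582%) changed by 1.39-fold to 1.99-fold. The smaller changes were more evenly split, with 109 higher (0.373% of all) and 61 lower (0.209%), against 136 higher (0.466%) and 19 lower (0.065%) among the larger ones. Of 40 probe sets that changed more than 4-fold, 38 rose. Among probe sets with 1 symbol 260 were called (1.7%), and among those without a symbol 64 were called (0.471%). The calls stood for 252 genes (1.74%), 197 higher (1.36%) and 55 lower (0.379%). All 170 probe sets with changes of 2-fold or less had groups that did not overlap, which held for 16.4% of all probe sets. So had 114 of the 115 called from more than 2-fold to 4-fold and all 40 called above 4-fold. Groups that lie apart thus came with nearly every call. The median SE of a difference was 0.164 over all probe sets and 0.176 over the called ones. Leaving out each of the 6 arrays in turn kept 117 of the calls every time, 97 higher and 20 lower. Without LD 1 there were 517 calls, without LD 2 212, without LD 3 146, and without Control 1, 2 or 3 there were 160, 160 and 168.

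**Figure D1:**
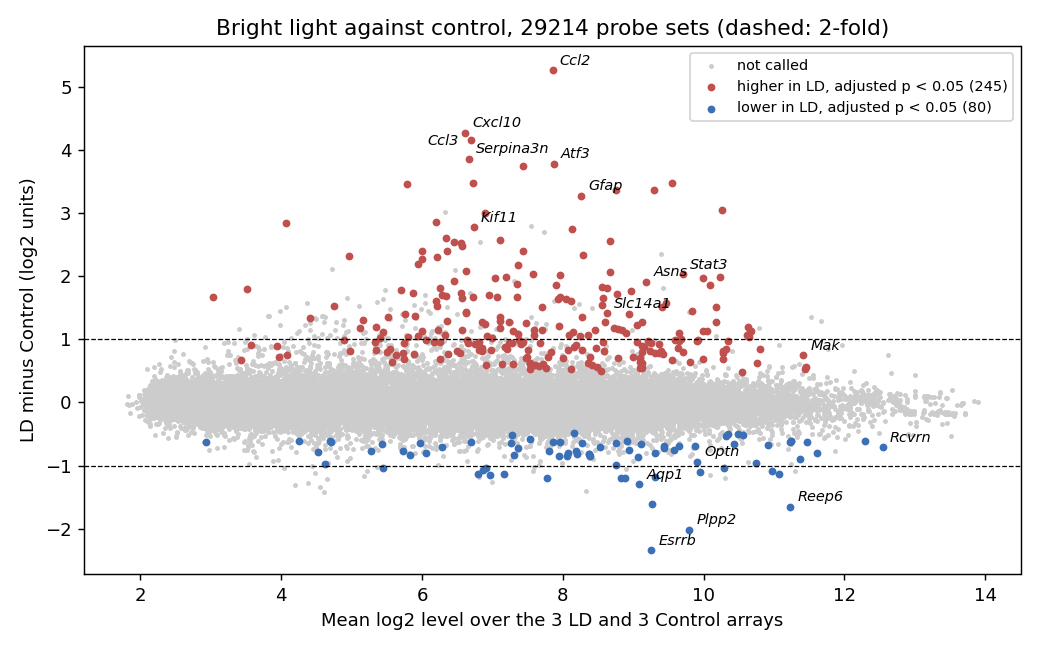
The difference between LD and Control (log2 units, vertical axis) is plotted against the mean log2 level of the 6 arrays (horizontal axis) for 29214 probe sets, with called increases in red (245), called decreases in blue (80) and dashed lines at 2-fold. The largest decreases, Esrrb, Plpp2 and Reep6, lie above a mean log2 level of 9, and most of the larger increases lie at middle levels.

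Photoreceptor genes were among the largest decreases, although most members of the photoreceptor lists did not pass the test. In these whole-retina samples, fewer cells of a type and less RNA per cell cannot be told apart. Esrrb, an orphan nuclear receptor of rods, had log2 levels of 8.66, 8.33 and 7.27 in LD against 10.62, 10.43 and 10.24 in Control. All LD arrays lay below all Control arrays, and Esrrb fell by 2.34 ± 0.33 on the log2 scale, 5.06-fold (adjusted p = 0.00114). Reep6, a rod protein of the endoplasmic reticulum needed for photoreceptor membrane traffic, stood at log2 levels of 10.85, 10.74 and 9.63 in LD and 12.16, 12.07 and 11.95 in Control. It fell 3.15-fold (adjusted p = 0.0013), and LD 3 was the lowest array for it as for Esrrb.

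Rod phototransduction as a whole moved less. Of 19 measured genes 0 rose and 2 fell (10.5%, against 1.74% of all genes), and 3 had a positive difference. Over all genes 6219 of 14506 differences were positive. The median log2 difference of the list was -0.29 (-0.17 without LD 3), beside -0.0345 over all genes. Rcvrn, recoverin, the calcium sensor that prolongs the rod light response, had log2 levels of 12.38, 12.28 and 11.90 in LD against 12.89, 12.89 and 12.93 in Control. Its groups were well apart, and it fell 1.64-fold (log2 difference -0.71 ± 0.12, adjusted p = 0.00337). Pdc, phosducin, which binds the βγ subunits of transducin, fell 1.52-fold (adjusted p = 0.0413), a call lost without any 1 of LD 2, LD 3 and the Control arrays (adjusted p 0.112 to 0.245). Gnat1, the rod transducin α subunit, had log2 levels of 13.38, 13.41 and 12.96 in LD and 13.74, 13.81 and 13.78 in Control, a difference of -0.53 ± 0.14 that did not pass (adjusted p = 0.0782). Cngb1, a subunit of the rod cyclic nucleotide channel, had a log2 difference of -0.84 ± 0.21 (adjusted p = 0.0612). The letters TAATCC, a motif of the photoreceptor factor Crx read on both strands, were in 5 of 16 promoter windows of the list, 0 of them of the 1 called member with a window, and in 7.17% of 33469 windows (RefSeq, GRCr8, 250 bases before to 50 after the start).

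Of 7 measured transcription factors that set photoreceptor identity, only Esrrb was called (14.3%), and the list median was -0.44 (-0.28 without LD 3). Nrl, the leucine zipper factor that determines rod fate, had log2 levels of 11.22, 11.24 and 9.82 in LD and 11.78, 11.97 and 11.78 in Control. The groups did not overlap, LD 3 was far the lowest array, and the difference of -1.09 ± 0.26 did not pass (adjusted p = 0.0502). Neurod1, a basic helix-loop-helix factor of photoreceptors, had the only positive difference of the list, 0.57 ± 0.14 (adjusted p = 0.0543). Lhx2, a homeodomain factor of retinal progenitors and Müller cells, fell 1.74-fold (adjusted p = 0.017) and Isl1, a factor of bipolar and inner neurons, fell 1.61-fold (adjusted p = 0.0175). Both of these calls were lost without 1 of LD 2, LD 3, Control 1 and Control 2 (adjusted p 0.0539 to 0.107).

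Cone genes fell in 2 of 11 cases (18.2%), and 3 had a positive difference (list median -0.27). Pde6h, the inhibitory subunit of the cone phosphodiesterase, had log2 levels of 8.67, 8.65 and 8.35 in LD against 9.17, 9.32 and 9.46 in Control and fell 1.69-fold (adjusted p = 0.0115). Gnat2, cone transducin, was at log2 levels of 10.18, 10.09 and 10.03 in LD and 10.64, 10.75 and 10.90 in Control and fell 1.58-fold (adjusted p = 0.0332). Every LD array lay below every Control array for both. Without 1 of LD 2, LD 3 and the Control arrays, one or both calls were lost (adjusted p 0.0552 to 0.156). Opn1sw, the short-wave cone opsin, had a log2 difference of -0.80 ± 0.21 (adjusted p = 0.0782). The cone marker Pde6c went the other way, by 0.44 ± 0.13 with groups that did not overlap, and did not pass (adjusted p = 0.161).

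Genes of the outer segment and cilium changed in both directions, with 2 higher and 2 lower of 24 (16.7%). Mak, a kinase of the photoreceptor connecting cilium, had log2 levels of 11.72, 11.79 and 11.85 in LD against 11.06, 11.15 and 10.91 in Control. It rose 1.68-fold (adjusted p = 0.00307), with LD arrays that hardly differed from each other. Fscn2, the retinal fascin that bundles actin in photoreceptors, had log2 levels of 10.69, 11.02 and 10.52 in LD against 9.90, 9.86 and 9.94 in Control and rose 1.79-fold (adjusted p = 0.00476). Rom1, a disc rim protein, fell 1.73-fold (adjusted p = 0.0282), a call lost without LD 3 or any 1 Control array (adjusted p 0.0602 to 0.145). In the visual cycle 1 of 16 genes rose (6.25%). This was Rdh10, a retinol dehydrogenase found in Müller cells and pigment epithelium, with log2 levels of 9.52, 10.65 and 10.59 in LD against 8.77, 8.66 and 8.60 in Control (2.99-fold, adjusted p = 0.0185). Its call was lost without any 1 of LD 2, LD 3 and the Control arrays (adjusted p 0.0651 to 0.126).

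None of 17 photoreceptor synapse genes passed. Among inner retinal neurons, 1 of 12 bipolar cell genes fell (Isl1, 8.33%), and 0 of 17 amacrine and horizontal cell genes, 0 of 15 ganglion cell genes, 0 of 30 glutamate and GABA receptor genes and 0 of 24 neuropeptide and dopamine genes passed. The median log2 difference was -0.17 for amacrine and horizontal cells and -0.22 for ganglion cells, where 1 of 17 and 2 of 15 genes were positive. LD 3 held the lowest list mean in each, 0.50 and 0.45 log2 units below the Control mean, and LD 2 lay 0.07 and 0.02 below it. Without LD 3 the list medians were -0.0636 and -0.13, and that of amacrine and horizontal cells was -0.0963 without Control 1 and -0.30 without Control 3. Opn4, melanopsin of the intrinsically light-sensitive ganglion cells, had log2 levels of 8.54, 8.48 and 7.84 in LD and 7.93, 8.03 and 7.85 in Control (difference 0.35 ± 0.22, adjusted p = 0.674).

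Reactive glial genes had the highest share of calls of the lists examined, with 15 of 19 genes higher and 0 lower. The share was 78.9%, against 1.74% of all genes, and the median log2 difference was 1.97. Lists were chosen with earlier results of these data known, so this share is a description and not a test. Gfap stood at log2 levels of 9.46, 10.37 and 9.86 in LD against 6.91, 6.23 and 6.73 in Control, so that the groups were separated by more than the spread within either (difference 3.27 ± 0.27). Cd44, a hyaluronan receptor of Müller cell processes, rose 2.42-fold (log2 difference 1.28 ± 0.20, adjusted p = 0.00257). Pdpn, podoplanin, had log2 levels of 10.43, 11.48 and 11.76 in LD and 9.29, 9.17 and 9.23 in Control and rose 3.98-fold (adjusted p = 0.00414). LD 1 was the lowest LD array for Gfap, Cd44 and Pdpn. Fgf2, a growth factor known to protect photoreceptors, had log2 levels of 7.65, 8.44 and 7.97 in LD against 6.22, 6.12 and 5.81 in Control and rose 3.92-fold (adjusted p = 0.0114). Edn2, endothelin 2, a peptide that injured photoreceptors release to Müller cells, rose 1.94-fold (adjusted p = 0.024), and A2m, the protease inhibitor α2-macroglobulin, rose 1.75-fold (adjusted p = 0.0204). The calls of Lcn2, Fgf2, Hspb1, Cp, A2m, Edn2 and Timp1 were each lost without at least 1 of LD 2, LD 3, Control 1, Control 2 and Control 3 (adjusted p 0.0512 to 0.295).

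The list of resting Müller cell genes gave a single call. Of 16 measured, 0 rose and 1 fell (6.25%), with a median of -0.18 (-0.0354 without LD 3). Aqp1, the water channel aquaporin 1, had log2 levels of 8.58, 8.58 and 8.15 in LD against 9.82, 9.61 and 9.77 in Control and fell 2.45-fold (adjusted p = 0.00182). Which cells of the whole retina its change came from was not tested. Of 7 measured Müller glia markers 0 passed, among them Aqp4 (difference -0.02 ± 0.23) and Kcnj10 (-0.08 ± 0.18). Slc14a1, a urea transporter outside the list, rose, with log2 levels of 9.27, 9.50 and 9.23 in LD against 7.78, 7.98 and 8.01 in Control (2.66-fold higher, adjusted p = 0.000319). For Aqp1 and Slc14a1 the groups did not overlap, and both calls were kept without any 1 array. Hes5, a Notch target, fell 1.56-fold (adjusted p = 0.0412), a call lost without 1 of LD 1, LD 2 and the Control arrays (adjusted p 0.0824 to 0.191).

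**Figure D2:**
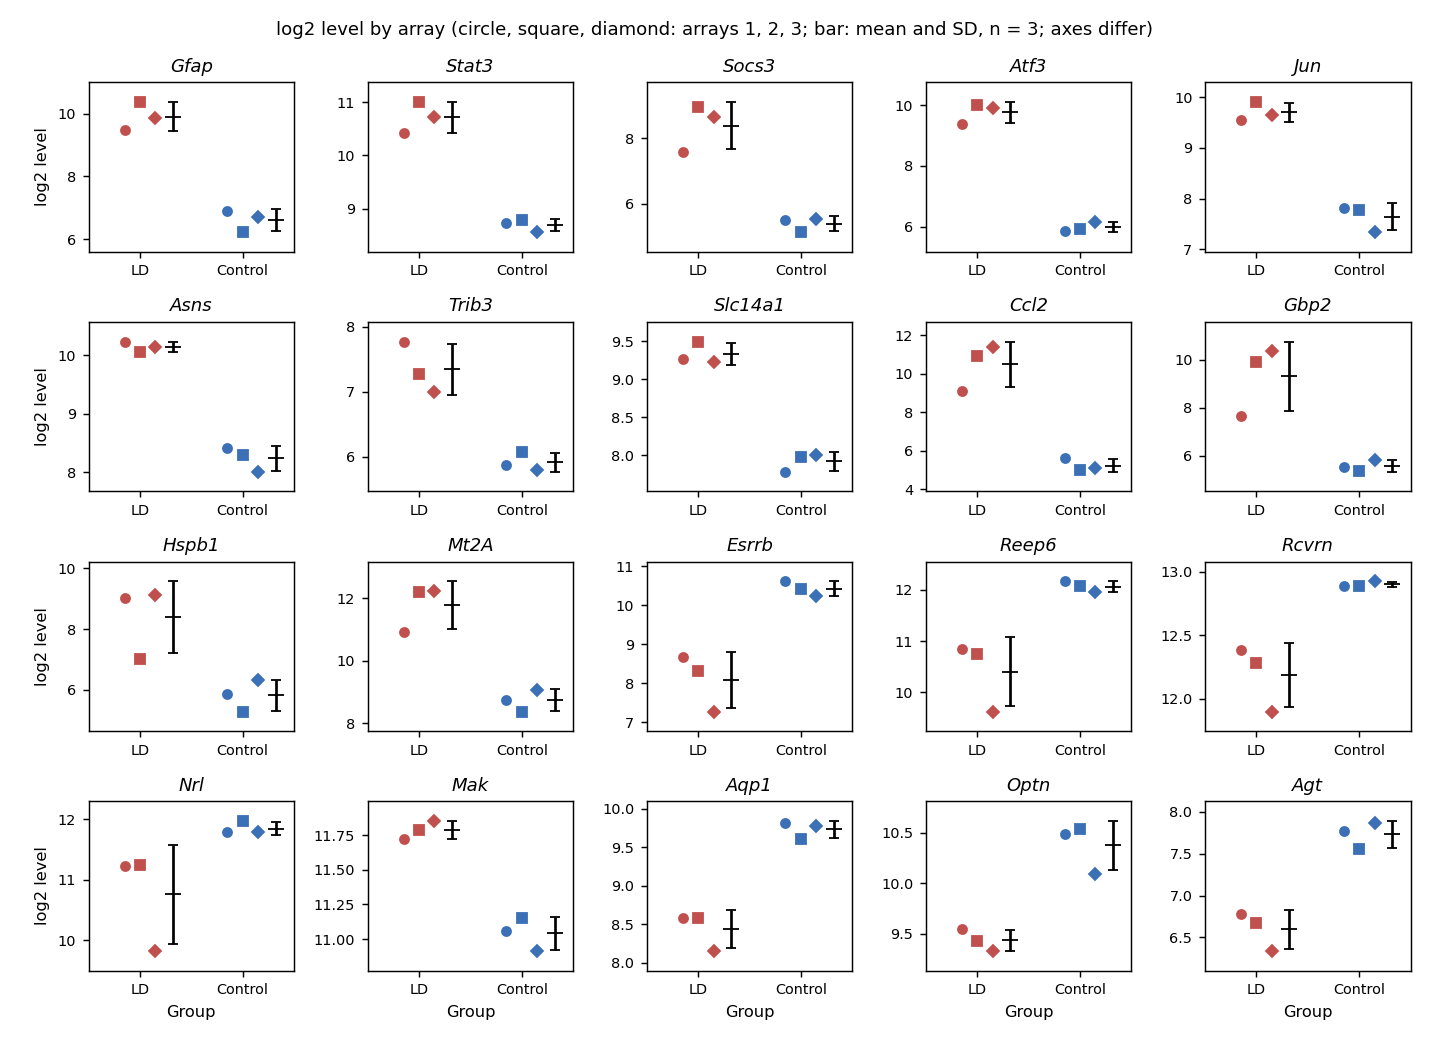
Log2 levels (vertical axes, which differ in range) are shown by array for 20 genes in LD (red, left) and Control (blue, right), with circle, square and diamond for arrays 1, 2 and 3 and a black bar for the mean and SD. Gfap, Atf3, Asns and Slc14a1 separate the groups on every array, LD 1 is the lowest LD array for Ccl2 and Gbp2, LD 2 for Hspb1, and LD 3 for Esrrb, Reep6 and Nrl.

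The gp130 and Stat3 list held ligands, receptors, the transcription factor and its feedback inhibitors, and 9 of 24 genes rose and 0 fell (37.5%, median 0.39). Among ligands, Clcf1 had log2 levels of 6.56, 7.56 and 7.28 in LD against 5.36, 5.30 and 5.64 in Control (3.25-fold, adjusted p = 0.00671). Lif had log2 levels of 6.90, 8.43 and 7.84 in LD and 5.02, 5.17 and 5.36 in Control (5.81-fold, adjusted p = 0.041). Both ligands were higher on every LD array than on any Control array. Of the receptors, Il6st, gp130 itself, had log2 levels of 10.99, 11.34 and 11.37 in LD against 10.19, 10.37 and 9.76 in Control and rose 2.19-fold (adjusted p = 0.0065). Stat3 had log2 levels of 10.41, 10.9985 and 10.73 in LD against 8.73, 8.78 and 8.56 in Control and rose 4.07-fold (adjusted p = 1.23e-05). Its feedback inhibitor Socs3 rose 8.03-fold (adjusted p = 0.000169) and Socs2 rose 1.92-fold (adjusted p = 0.0339), and both stood lowest on LD 1 among the LD arrays. The calls of Lif and Socs2 were lost without any 1 of LD 2, LD 3 and the Control arrays (adjusted p 0.0739 to 0.179).

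Cish, another inhibitor of cytokine receptor signalling, had log2 levels of 9.83, 10.86 and 10.60 in LD against 7.14, 7.15 and 6.93 in Control, with no overlap. Its RefSeq promoter window (GRCr8, 250 bases before to 50 after the start) was the one called member of the list to hold the STAT motif TTCNNNGAA. The 150 bases that hold it are shown to place the 4 matches, which stand in capitals, at chr8:116850719-116850868 on the plus strand (bases -250 to -101 from the start).
Cish: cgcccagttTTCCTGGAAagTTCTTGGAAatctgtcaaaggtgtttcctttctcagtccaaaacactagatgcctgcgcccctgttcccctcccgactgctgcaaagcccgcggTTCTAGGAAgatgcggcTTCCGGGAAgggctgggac
Over the list, 2 of 16 members with a window held the motif, on either strand, and 8.87% of 33469 promoter windows did. A match describes the letters of this window and is not a measured binding site.

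Immediate early genes, the first transcripts of stimulated cells, rose in 10 of 30 cases and fell in 0 (33.3%, median 0.50). Jun had log2 levels of 9.55, 9.91 and 9.65 in LD against 7.81, 7.77 and 7.34 in Control (4.18-fold, adjusted p = 7.25e-06). Egr1, a zinc finger factor, had log2 levels of 8.92, 9.87 and 9.62 in LD against 7.95, 7.67 and 7.32 in Control (3.54-fold, adjusted p = 0.000866). Npas4, a factor tied to neuronal activity, was at log2 levels of 7.51, 8.86 and 9.41 in LD and 6.65, 6.68 and 6.35 in Control (4.09-fold, adjusted p = 0.00433). No LD array overlapped with a Control array for these, and LD 1 was the lowest LD array in each. Fosl1 rose 5.54-fold, Junb 4.03-fold, Fos 2.39-fold and Fosl2 1.53-fold (adjusted p 0.000622, 0.00124, 0.0112 and 0.0481), all of them partners of Jun in the AP-1 complex. Zfp36, which promotes decay of cytokine transcripts, rose 4.50-fold (adjusted p = 0.0144). The calls of Fos, Zfp36, Ier3 and Fosl2 were lost without at least 1 of LD 2, LD 3 and the Control arrays (adjusted p 0.0607 to 0.216). The AP-1 motif TGANTCA, read on both strands, was in 0 of 21 promoter windows of the immediate early list (RefSeq, GRCr8) and in 7.33% of 33469 windows. MAP kinase feedback genes were mixed, with 3 of 18 higher and 1 lower (22.2%). The phosphatases Dusp6 (1.92-fold) and Dusp5 (1.65-fold) rose and Dusp14 fell 1.53-fold (adjusted p 0.00898, 0.0419 and 0.0279), and each call was lost without at least 1 of LD 2, LD 3 and the Control arrays (adjusted p 0.0569 to 0.248).

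NF-kB pathway genes rose in 9 of 19 cases and fell in 0 (47.4%, median 0.57, or 0.90 without LD 1). Tnip2, an inhibitor of the pathway, had log2 levels of 8.20, 8.42 and 7.93 in LD against 6.35, 6.81 and 6.37 in Control (3.18-fold, adjusted p = 0.000102). Icam1, an adhesion molecule for leukocytes, had log2 levels of 8.02, 9.06 and 8.79 in LD against 6.01, 6.32 and 6.37 in Control (5.25-fold, adjusted p = 0.000259). The groups were apart in both, and both calls were kept without any 1 array, as was that of Nfkbiz (2.22-fold, adjusted p = 0.00459). Sele and Selp, endothelial selectins, rose 2.65-fold and 2.55-fold (adjusted p 0.0112 and 0.0176). The subunit genes Nfkb2 and Nfkb1 rose 3.19-fold and 1.83-fold (adjusted p 0.0116 and 0.0354). The calls of both selectins, both subunits, Birc3 and Nfkbie were each lost without at least 1 of LD 2, LD 3 and the Control arrays (adjusted p 0.0519 to 0.173).

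Chemokine ligands rose, with 6 of 33 genes of the list higher and 0 lower (18.2%, median 0.14, or 0.26 without LD 1 and 0.0239 without LD 3), and all 6 were ligands of the CC or CXC class. Ccl2, which attracts monocytes, had log2 levels of 9.13, 10.94 and 11.38 in LD against 5.60, 5.00 and 5.08 in Control. Ccl4 had log2 levels of 6.19, 6.98 and 7.01 in LD and 4.95, 4.72 and 5.34 in Control (3.31-fold, adjusted p = 0.00161). Cxcl10, an interferon-induced ligand for T cells, had log2 levels of 6.35, 9.83 and 10.05 in LD and 4.50, 4.60 and 4.31 in Control (adjusted p = 0.024). LD 1 was above every Control array for all of them, yet for Cxcl10 it lay nearer to Control than to the other LD arrays. Ccl12 (4.97-fold) and Ccl7 (4.82-fold) had the remaining calls besides Ccl3 (adjusted p 0.0203 and 0.0414). The calls of Cxcl10, Ccl12 and Ccl7 were lost without any 1 of LD 2, LD 3 and the Control arrays (adjusted p 0.0601 to 0.226).

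Among innate sensors and cytokines 4 of 29 rose (13.8%). Tnf had log2 levels of 5.40, 6.03 and 6.0018 in LD against 5.01, 4.62 and 4.93 in Control (1.94-fold, adjusted p = 0.0124). Myd88, the adaptor of Toll-like receptors, rose 2.42-fold (adjusted p = 0.015), Tnfrsf9 rose 4.55-fold (adjusted p = 0.0145) and Ifih1, a sensor of double-stranded RNA, rose 3.21-fold (adjusted p = 0.0279). All 4 calls were lost without at least 1 of LD 2, LD 3 and the Control arrays (adjusted p 0.058 to 0.193). Il1b, interleukin 1β, had log2 levels of 4.72, 5.80 and 5.94 in LD and 4.18, 4.06 and 4.55 in Control (difference 1.22 ± 0.30, adjusted p = 0.0623).

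Interferon response genes leaned one way as a whole. All 39 measured genes had positive differences, with a median log2 difference of 0.92 beside -0.0345 over all genes, and 7 passed (17.9%). Irf9, the DNA-binding subunit of the interferon-stimulated factor complex, had log2 levels of 8.88, 9.72 and 9.76 in LD against 7.12, 7.35 and 6.91 in Control (5.02-fold, adjusted p = 2.95e-05). Gbp2, a guanylate-binding protein, had log2 levels of 7.66, 9.90 and 10.39 in LD against 5.53, 5.34 and 5.83 in Control. Rsad2, viperin, had log2 levels of 6.34, 9.32 and 9.72 in LD and 4.87, 5.08 and 4.99 in Control. LD 1 was the lowest LD array in each of them, and its list mean lay 0.34 log2 units above the Control mean where those of LD 2 and LD 3 lay 1.46 and 1.40 above it. Ifit3 (5.26-fold, adjusted p = 0.0365), Gbp5 (7.27-fold, adjusted p = 0.0393), Irf1 (2.55-fold, adjusted p = 0.00739) and Trim21 (1.93-fold, adjusted p = 0.0459) also rose. Irf1 lost its call without LD 3 (adjusted p = 0.0595), and Rsad2, Ifit3, Gbp5 and Trim21 lost theirs without any 1 of LD 2, LD 3 and the Control arrays (adjusted p 0.0516 to 0.259).

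The interferon-stimulated response element, written here as TTTCNNTTTC and read on both strands, was in 16 of the 31 promoter windows found for the list and in 3.92% of 33469 windows. It was in 5 of the 7 called members, and the windows of Irf9 and Irf1 did not hold these letters. The promoters of 4 called genes are shown because they rose together, with the motif in capitals (RefSeq, GRCr8). Gbp2 lies at chr2:234005637-234005726, plus strand, Ifit3 at chr1:241527236-241527325, plus strand, and Gbp5 at chr2:233910909-233910998, plus strand, each from base -90 to -1. Rsad2 lies at chr6:48788221-48788310, minus strand, from base -190 to -101.
Gbp2: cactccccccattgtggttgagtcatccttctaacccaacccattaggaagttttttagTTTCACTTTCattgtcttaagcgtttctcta
Rsad2: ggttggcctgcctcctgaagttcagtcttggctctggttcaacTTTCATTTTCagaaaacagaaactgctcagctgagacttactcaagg
Ifit3: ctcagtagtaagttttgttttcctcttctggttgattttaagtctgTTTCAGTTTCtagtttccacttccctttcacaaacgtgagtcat
Gbp5: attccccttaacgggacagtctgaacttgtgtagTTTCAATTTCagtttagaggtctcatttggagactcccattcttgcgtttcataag

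Antigen presentation, microglial and complement genes gave 1 call in each list, beside 1.74% of all genes. Of 24 antigen presentation genes 1 rose (4.17%): Tap1, a peptide transporter, with log2 levels of 6.10, 7.74 and 7.17 in LD and 5.38, 5.43 and 6.33 in Control. Its groups overlapped (2.44-fold, adjusted p = 0.0494), and the call was lost without 1 of LD 2, LD 3, Control 1 and Control 2 (adjusted p 0.207 to 0.253). Of 22 microglia and macrophage genes 0 rose and 1 fell (4.55%), and 9 had positive differences (list median -0.06). The list mean lay -0.08, 0.14 and 0.22 log2 units from the Control mean on LD 1, LD 2 and LD 3. P2ry12, the receptor of resting microglia, had log2 levels of 5.49, 4.66 and 4.62 in LD against 6.0022, 5.77 and 6.11 in Control (2.05-fold lower, adjusted p = 0.0419), a call lost without any 1 of LD 2, LD 3 and the Control arrays (adjusted p 0.0821 to 0.253). C1qb, a complement subunit made by microglia, had a log2 difference of -0.42 ± 0.14 (adjusted p = 0.235). The microglia and macrophage markers Itgam, Ptprc and Cd68 had positive differences of 0.37 ± 0.13, 0.68 ± 0.27 and 0.57 ± 0.24. None of these passed either (adjusted p 0.248, 0.379 and 0.45). Of 17 complement genes 1 fell (5.88%), the regulator Cd59b, by 1.44-fold (adjusted p = 0.0427), and it lost its call without any 1 of the 6 arrays (adjusted p 0.0631 to 0.224).

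**Figure D3:**
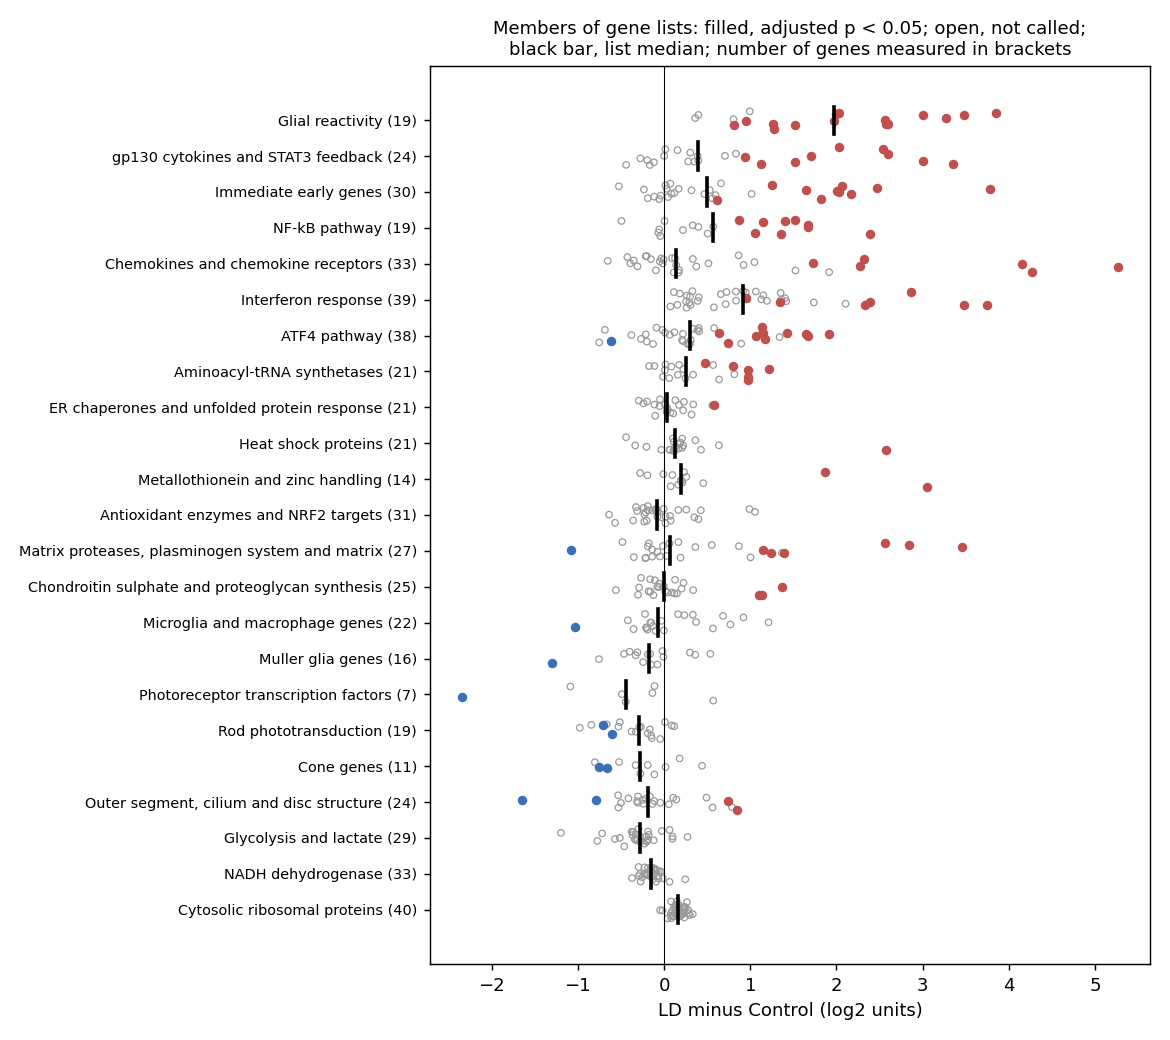
Differences between LD and Control (log2 units, horizontal axis) are shown for each measured gene of 23 lists, with called increases in red, called decreases in blue, genes not called as open circles and the list median as a black bar. The reactive glial list lies furthest to the right (median 1.97), every interferon response gene lies right of 0, and the medians of the rod and glycolysis lists lie left of 0 with few or no calls.

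The amino acid response, in which the factor Atf4 induces genes for amino acid synthesis and transport when translation is checked, gave changes of like size on the 3 LD arrays. Of 38 genes 10 rose and 1 fell (28.9%, median 0.30). Asns, asparagine synthetase, had log2 levels of 10.23, 10.05 and 10.14 in LD against 8.40, 8.29 and 8.0028 in Control (3.75-fold, log2 difference 1.91 ± 0.13, adjusted p = 9.93e-07). Mthfd2, an enzyme of mitochondrial one-carbon metabolism, had log2 levels of 9.03, 8.73 and 8.63 in LD against 7.05, 7.08 and 7.24 in Control (3.19-fold, adjusted p = 8.1e-06). Gdf15, a stress-induced cytokine, had log2 levels of 7.36, 7.60 and 7.21 in LD and 5.58, 5.70 and 5.95 in Control (3.13-fold, adjusted p = 2.95e-05). In contrast to the interferon genes, LD 1 was as high as LD 2 and LD 3, with list means 0.47, 0.45 and 0.40 log2 units above the Control mean. Aldh18a1, of proline synthesis (2.25-fold), and the transporters Slc7a1 (2.19-fold), Slc38a2 (2.09-fold) and Slc1a4 (2.21-fold) also rose (adjusted p 0.000391, 0.000866, 0.00223 and 0.00437). Trib3, a pseudokinase that inhibits Atf4, rose 2.69-fold (adjusted p = 0.000181). Vldlr and Gpt2 rose 1.56-fold and 1.68-fold and the aspartate transaminase Got1 fell 1.54-fold (adjusted p 0.024, 0.0409 and 0.028). The calls of these last 3 genes were each lost without several of the single arrays, LD 1 among them only for Gpt2 (adjusted p 0.0576 to 0.199).

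The Atf4 composite motif, TGATGNAA on either strand, was in 9 of 33 promoter windows of the list and in 3.98% of 33469 windows, and in 4 of the 10 called members that had one. The windows of Trib3, at chr3:161275534-161275613 on the minus strand, and Slc7a1, at chr12:11664408-11664487 on the plus strand, are shown from base -80 to -1 because the motif lies close to the start in both (RefSeq, GRCr8). Capitals mark the motif, which in Trib3 is read on the other strand.
Trib3: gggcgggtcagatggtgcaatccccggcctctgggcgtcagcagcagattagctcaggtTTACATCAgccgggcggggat
Slc7a1: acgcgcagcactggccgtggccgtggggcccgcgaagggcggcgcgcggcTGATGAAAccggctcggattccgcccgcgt

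Aminoacyl-tRNA synthetases, which charge tRNAs with amino acids, rose in 6 of 21 cases and fell in 0 (28.6%, median 0.25). Tars1, for threonine, had log2 levels of 9.49, 9.65 and 9.85 in LD against 8.38, 8.39 and 8.56 in Control (2.33-fold, adjusted p = 2.95e-05). The other 5 rose by less than 2-fold: Cars1 1.97-fold, Mars1 1.96-fold, Iars1 1.96-fold, Lars1 1.74-fold and Nars1 1.39-fold (adjusted p 0.0035, 0.00529, 0.0112, 0.0132 and 0.041). Iars1 lost its call without Control 3 (adjusted p = 0.0762), Lars1 without 1 of LD 3, Control 1 and Control 2 (adjusted p 0.0634 to 0.082), and Nars1 without any 1 of the 6 arrays (adjusted p 0.0825 to 0.192). Among chaperones and other genes of the unfolded protein response, 1 of 21 rose (4.76%). This was Herpud1 (1.49-fold, adjusted p = 0.0384), whose call was lost without 1 of LD 1, LD 2 and the Control arrays (adjusted p 0.0975 to 0.156). Hspa5, the main chaperone of that compartment, had log2 levels of 11.48, 11.70 and 11.16 in LD and 11.25, 11.22 and 10.86 in Control, with overlapping groups (difference 0.34 ± 0.16, adjusted p = 0.518).

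Metallothioneins, small proteins that bind zinc and copper, were the called members of the zinc list, 2 of 14 (14.3%). Mt2A had log2 levels of 10.91, 12.21 and 12.24 in LD against 8.75, 8.38 and 9.08 in Control (8.27-fold, adjusted p = 0.00056), and its other probe set rose 10.3-fold. Mt1 had log2 levels of 10.49, 11.16 and 11.41 in LD and 9.35, 8.64 and 9.47 in Control (3.64-fold, adjusted p = 0.0113), a call lost without 1 of LD 2, LD 3 and Control 2 (adjusted p 0.0522 to 0.0885). The groups of both genes were apart. Mt3, the form typical of brain, had a log2 difference of -0.28 ± 0.17 (adjusted p = 0.653). The letters TGCNCNC, a loose form of the core of the metal response element with any base at N, were sought on either strand. They were in 11 of 13 windows of the list and in 49.6% of 33469 windows, so that their presence is common. A match to these letters need not be a core of the element. The windows of the called pair are shown for the number of matches, in capitals: 5 in Mt2A at chr19:10838749-10838938 (bases -230 to -41) and 7 in Mt1 at chr19:10832976-10833165 (bases -190 to -1), both on the minus strand of GRCr8 (RefSeq).
Mt2A: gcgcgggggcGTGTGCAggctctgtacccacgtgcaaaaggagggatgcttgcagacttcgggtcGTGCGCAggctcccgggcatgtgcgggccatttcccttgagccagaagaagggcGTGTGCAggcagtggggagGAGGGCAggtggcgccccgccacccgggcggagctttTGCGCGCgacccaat
Mt1: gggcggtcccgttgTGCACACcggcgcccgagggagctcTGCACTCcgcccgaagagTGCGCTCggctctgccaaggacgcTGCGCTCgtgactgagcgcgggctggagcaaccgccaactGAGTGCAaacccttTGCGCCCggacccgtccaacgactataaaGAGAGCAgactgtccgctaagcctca

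Iron handling genes changed in 4 of 25 cases, 3 higher and 1 lower (16%). Slc11a2, a divalent metal importer, had log2 levels of 9.54, 9.66 and 9.73 in LD against 8.82, 8.87 and 8.81 in Control (1.75-fold, adjusted p = 0.00124). Hmox1, haem oxygenase 1, which breaks haem down to release iron, had log2 levels of 6.12, 7.47 and 8.0009 in LD and 4.77, 4.55 and 5.04 in Control (5.29-fold, adjusted p = 0.00288). The groups were far apart in both, and both calls were kept without any 1 array. Cp, ceruloplasmin, a copper ferroxidase, rose 2.41-fold (adjusted p = 0.0174), and Slc40a1, the iron exporter ferroportin, fell 1.58-fold (adjusted p = 0.0481). The calls of this last pair were lost without at least 1 of LD 2, LD 3 and the Control arrays (adjusted p 0.0589 to 0.277).

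The list of antioxidant enzymes and targets of the factor Nrf2 gave no call in 31 genes by limma. Hmox1, also a target of Nrf2, was counted in the iron list and was called (log2 difference 2.40 ± 0.38, adjusted p = 0.00288). The methods' t-test after adjustment called no probe set at all, so it adds nothing on this list. Nfe2l2, Nrf2 itself, had log2 levels of 9.42, 9.63 and 10.34 in LD and 8.88, 8.67 and 8.86 in Control (difference 0.99 ± 0.23, adjusted p = 0.0505). Sod2, mitochondrial superoxide dismutase, had log2 levels of 10.01, 11.07 and 11.02 in LD and 9.66, 9.72 and 9.55 in Control (difference 1.05 ± 0.27, adjusted p = 0.075). Gpx3, extracellular glutathione peroxidase, had a log2 difference of -0.57 ± 0.20 (adjusted p = 0.279). For Nfe2l2 and Sod2 the groups did not overlap, yet neither passed.

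Among heat shock proteins 1 of 21 rose (4.76%), the small heat shock protein Hspb1. It had log2 levels of 9.03, 7.02 and 9.12 in LD against 5.85, 5.29 and 6.31 in Control (5.95-fold, adjusted p = 0.0117). LD 2, the LD array with lens genes at the Control level, was also the lowest LD array for Hspb1. With the lens list mean as a covariate the log2 difference was 1.46 (adjusted p = 0.0207), and with LD 2 as the only LD array it was 1.20 (adjusted p = 0.69). Its call was also lost without 1 of LD 3, Control 1 and Control 2 (adjusted p 0.0512 to 0.0988). Tubb6, a β-tubulin, had the same order of LD arrays, with log2 levels of 9.07, 8.39 and 9.41 in LD and 7.68, 7.33 and 7.78 in Control (2.56-fold, adjusted p = 0.0051), and a log2 difference of 0.79 with LD 2 as the only LD array (adjusted p = 0.382). Hsph1, a large heat shock protein, had a log2 difference of 0.64 ± 0.17 (adjusted p = 0.0968). The heat shock motif GAANNTTC was in 12 of 17 windows of the list and 8.59% of 33469 windows, and the stretch of the Hspb1 window at chr12:26432382-26432451, minus strand, bases -150 to -81 (RefSeq, GRCr8), is shown with its 2 matches in capitals.
Hspb1: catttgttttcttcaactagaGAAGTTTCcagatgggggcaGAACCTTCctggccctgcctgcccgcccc

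Cell death genes rose in 2 of 31 cases and fell in 0 (6.45%). Mcl1, an anti-apoptotic member of the Bcl2 family, had log2 levels of 10.49, 10.69 and 10.81 in LD against 9.75, 9.93 and 9.96 in Control (1.72-fold, adjusted p = 0.00476). Another probe set of Mcl1 differed by 0.0864 on the log2 scale and was not called. Ripk1, a kinase of death receptor and NF-kB signalling, rose 1.94-fold (adjusted p = 0.0183). Gadd45g was the 1 call in 19 DNA damage and p53 target genes (5.26%, against 1.74% of all genes). It rose 2.12-fold (adjusted p = 0.0354). The calls of Ripk1 and Gadd45g were lost without at least 1 of LD 2, LD 3 and the Control arrays (adjusted p 0.0722 to 0.173). Cdkn1a, the cell cycle inhibitor induced by p53, had log2 levels of 7.65, 8.09 and 7.96 in LD and 7.60, 7.28 and 7.39 in Control (difference 0.48 ± 0.16, adjusted p = 0.245).

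Of 27 cell cycle genes 2 rose (7.41%). Kif11, a mitotic kinesin, had log2 levels of 7.33, 8.23 and 8.80 in LD against 5.30, 5.39 and 5.35 in Control (6.83-fold, adjusted p = 0.000236), with all LD arrays far above Control. Ccnd2, cyclin D2, rose 1.90-fold (adjusted p = 0.041), a call lost without any 1 of LD 2, LD 3 and the Control arrays (adjusted p 0.115 to 0.22). Ccna2, cyclin A2 of DNA synthesis and mitosis, had log2 levels of 5.40, 5.49 and 5.58 in LD and 5.30, 5.32 and 5.04 in Control (adjusted p = 0.545), and the median of the list was -0.07 (-0.0148 without Control 3 and -0.0336 without LD 1). Ddx21, a nucleolar helicase, was the single call in 20 genes of the nucleolus and Myc list (5%, against 1.74% of all genes). It rose 1.54-fold (adjusted p = 0.00781), a call lost without Control 3 (adjusted p = 0.0522).

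Genes of the endothelin and angiotensin systems were called in 2 of 15 cases, Edn2 higher and Agt lower (13.3%), and those of the Wnt and Notch list in 2 of 34, Kremen1 higher and Hes5 lower (5.88%, against 1.74% of all genes). Agt, angiotensinogen, the precursor of angiotensin, had log2 levels of 6.77, 6.67 and 6.33 in LD against 7.77, 7.55 and 7.87 in Control (2.20-fold lower, adjusted p = 0.000622). Kremen1, a co-receptor that curbs Wnt signals, had log2 levels of 8.49, 9.08 and 8.66 in LD against 7.16, 7.22 and 6.94 in Control (3.11-fold higher, adjusted p = 0.000695). The groups were well apart in both. Wif1, a secreted Wnt inhibitor, had log2 levels of 5.24, 5.42 and 5.56 in LD against 6.48, 6.08 and 6.16 in Control (1.78-fold lower, adjusted p = 0.0015). Frzb, another secreted Wnt inhibitor, fell 1.68-fold (adjusted p = 0.0144), a call lost without 1 of LD 2, LD 3, Control 1 and Control 3 (adjusted p 0.0594 to 0.0921). The guidance molecules Sema7a and Sema3f fell 2.19-fold and 1.69-fold (adjusted p 0.00537 and 0.00331). In the TGF-β, BMP and activin list 0 of 28 genes passed.

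Extracellular matrix genes gave calls in both directions, with 6 of 27 proteases and matrix genes higher and 1 lower (25.9%). Plat, tissue plasminogen activator, had log2 levels of 8.98, 9.61 and 9.67 in LD against 8.25, 8.29 and 8.28 in Control (2.21-fold, adjusted p = 0.0013). Adamts1, a protease of proteoglycans, had log2 levels of 9.39, 9.9982 and 9.52 in LD against 8.30, 8.38 and 8.04 in Control (2.63-fold, adjusted p = 0.00223). Serpinb2, the inhibitor of plasminogen activators, had log2 levels of 3.15, 5.95 and 7.38 in LD and 2.50, 2.67 and 2.79 in Control (7.16-fold, adjusted p = 0.0385). All LD arrays were above Control in these, and LD 1 was close to Control for Serpinb2 alone. Lamb3, a laminin chain, fell 2.11-fold (adjusted p = 0.0073), a call lost without LD 3 (adjusted p = 0.051). Adamts4 and Timp1, an aggrecanase and a metalloprotease inhibitor, rose 2.36-fold and 5.90-fold (adjusted p 0.0206 and 0.0494). The calls of Mmp3, Adamts4, Serpinb2 and Timp1 were lost without at least 1 of LD 2, LD 3 and the Control arrays (adjusted p 0.0511 to 0.295).

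The synthesis of chondroitin sulphate, the sugar chain of matrix proteoglycans, gave 3 increases in 25 genes (12%). Chsy1, chondroitin sulphate synthase, had log2 levels of 10.51, 10.82 and 10.53 in LD against 9.54, 9.47 and 9.46 in Control (2.19-fold, adjusted p = 0.000169). Chst3, a chondroitin sulphotransferase, had log2 levels of 6.29, 7.12 and 6.34 in LD against 5.33, 5.07 and 5.27 in Control (2.58-fold, adjusted p = 0.00188). Neither overlapped with Control, and both calls were kept without any 1 array. Slc26a2, a sulphate transporter, rose 2.15-fold (adjusted p = 0.0181), a call lost without 1 of LD 2, LD 3, Control 1 and Control 3 (adjusted p 0.0539 to 0.12). The list median was -0.0026, and its sign was not the same under all alternatives.

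Of the lipid lists, 3 of 23 prostaglandin and lipid mediator genes were called, 2 higher and 1 lower (13%), with 2 of 26 fatty acid genes higher (7.69%) and 1 of 21 sterol genes lower (4.76%), beside 1.74% of all genes. Ch25h, which makes 25-hydroxycholesterol, had log2 levels of 6.66, 7.57 and 7.85 in LD against 5.05, 4.88 and 5.23 in Control (4.95-fold, adjusted p = 0.00529). Ptgs2, cyclooxygenase 2 of prostaglandin synthesis, had log2 levels of 6.60, 6.93 and 7.17 in LD and 6.13, 6.06 and 6.06 in Control (1.76-fold, adjusted p = 0.00574). Crot, a carnitine acyltransferase of peroxisomes, had log2 levels of 10.53, 10.88 and 11.08 in LD against 9.74, 9.82 and 10.01 in Control (1.96-fold, adjusted p = 0.00116). All 3 genes had groups that did not overlap. Lower in LD were Plpp2, a phospholipid phosphatase, with log2 levels of 9.19, 9.02 and 8.15 in LD and 10.74, 10.73 and 10.94 in Control, and Cerk, ceramide kinase (2.26-fold lower, adjusted p = 0.0114). Cyp46a1, which turns cholesterol into the form that leaves neural tissue, fell 1.54-fold (adjusted p = 0.0342), and Plin2, a coat protein of lipid droplets, rose 2.30-fold (adjusted p = 0.0447). The calls of Cerk, Cyp46a1 and Plin2 were lost without at least 1 of LD 2, LD 3 and the Control arrays (adjusted p 0.056 to 0.277).

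Energy metabolism gave no calls but leaned low. Of 29 genes of glycolysis and lactate handling 0 passed and 4 had positive differences, with a median log2 difference of -0.28 (-0.11 without LD 3). Pkm, pyruvate kinase, had log2 levels of 12.84, 12.89 and 12.42 in LD and 13.21, 13.25 and 13.23 in Control (difference -0.51 ± 0.13, adjusted p = 0.0864). Slc16a1, a monocarboxylate transporter for lactate, had log2 levels of 10.06, 10.04 and 9.57 in LD and 10.48, 10.68 and 10.67 in Control (difference -0.72 ± 0.17, adjusted p = 0.0504). Neither overlapped, and neither passed. The citric acid cycle and creatine list (1 of 20 positive, median -0.17), the NADH dehydrogenase list (2 of 33 positive, median -0.15) and the cytochrome c oxidase and ATP synthase list (2 of 27 positive, median -0.16) also had 0 calls. NADH dehydrogenase means were 0.17, 0.13 and 0.13 log2 units below the Control mean on the LD arrays. Control 1 and Control 2 lay 0.15 and 0.12 below it, and Control 3 lay 0.27 above it. The groups thus overlapped for that list, with Control 3 the one array that stood high. Without Control 3 the medians of the NADH dehydrogenase and oxidase lists were -0.0244 and -0.0174, and without LD 3 that of the citric acid cycle list was -0.0745. Cytosolic ribosomal proteins were the reverse in sign, with 38 of 40 positive, a median of 0.16 (0.0810 without Control 1 and 0.28 without Control 3) and 0 calls. Their list means lay 0.12, 0.09 and 0.27 log2 units above the Control mean on the LD arrays. The Control arrays lay at -0.15, -0.11 and 0.25 from it, so that Control 3 was above LD 1 and LD 2 and the groups overlapped.

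Optn, optineurin, an autophagy receptor linked to glaucoma in people, was the 1 call in 24 autophagy and lysosome genes (4.17%, against 1.74% of all genes). It had log2 levels of 9.55, 9.43 and 9.33 in LD against 10.49, 10.54 and 10.10 in Control and fell 1.92-fold (adjusted p = 0.000493), with groups well apart. In the circadian clock list 0 of 18 genes passed, in the endothelial list 0 of 19, in the proteasome list 0 of 28 and among reference genes 0 of 11. Hprt1, often used to normalise, had a log2 difference of -0.47 ± 0.22 (adjusted p = 0.51), and Gapdh one of -0.19 ± 0.09 (adjusted p = 0.559). Endothelial genes had a median log2 difference of -0.20, and Cldn5, a tight junction protein, had log2 levels of 6.32, 6.03 and 6.27 in LD and 6.84, 6.65 and 7.03 in Control (adjusted p = 0.1).

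Changes of 2-fold or less that no list held came from genes of many kinds. Slc9a8, a sodium-proton exchanger, rose 1.85-fold (adjusted p = 0.00146), Nabp1, a single-stranded nucleic acid binding protein of DNA repair, rose 1.90-fold (adjusted p = 0.00194), and Dlg1, a scaffold protein of cell junctions and synapses, rose 1.99-fold (adjusted p = 0.00574). Thg1l, which adds guanosine to histidine tRNA, rose 1.83-fold (adjusted p = 0.00434), and Flot2, flotillin 2 of membrane rafts, rose 1.74-fold (adjusted p = 0.00443). Sntg2, a syntrophin, fell 1.80-fold (adjusted p = 0.00087), Rabep2, an effector of early endosomes, fell 1.70-fold (adjusted p = 0.00091), and Smarcd1, a subunit of a chromatin remodelling complex, fell 1.93-fold (adjusted p = 0.0053). These 8 genes kept their calls without any 1 array. Msi1, an RNA-binding protein of retinal and neural progenitors and photoreceptors, fell 1.60-fold (adjusted p = 0.0111), and Kpna2, an importin, fell 1.53-fold (adjusted p = 0.0112). Msi1 lost its call without LD 3 or Control 3, and Kpna2 lost its call without LD 2, LD 3 or Control 1 (adjusted p 0.0532 to 0.0717).

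Among larger decreases outside the lists, Susd3 fell 2.30-fold (adjusted p = 0.00011) and Tmem116 fell 2.28-fold (adjusted p = 0.00049). Miox, which opens the ring of inositol, had log2 levels of 6.27, 6.22 and 6.20 in LD against 7.36, 7.21 and 7.50 in Control (2.18-fold lower, adjusted p = 0.00033). Trpm2, a cation channel gated by oxidative stress, had log2 levels of 6.69, 6.49 and 5.97 in LD and 7.35, 7.53 and 7.40 in Control (2.06-fold lower, adjusted p = 0.00388). Tlcd3b fell 2.12-fold (adjusted p = 0.00476). All LD arrays were below all Control arrays for these genes, as the rule that named them required, and each call was kept without any 1 array.

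Probe sets without a symbol gave 64 calls, 41 higher (0.302%) and 23 lower (0.169%). The largest changes were in probe set 10862908 (log2 difference 1.79 ± 0.28), probe set 10700562 (1.66 ± 0.38), probe set 10915843 (-1.61 ± 0.35), probe set 10705553 (1.60 ± 0.24) and probe set 10927842 (1.54 ± 0.26). The last of these had log2 levels of 8.43, 9.54 and 10.01 in LD against 7.79, 7.74 and 7.84 in Control, with LD 1 again the lowest LD array. The calls of probe sets 10700562 and 10915843 were lost without several of the single arrays, LD 1 among them only for the first (adjusted p 0.0539 to 0.203).

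The LD arrays differed from each other by gene group. LD 1 was the lowest LD array for inflammatory lists, with chemokine, matrix and innate sensor means 0.32, 0.15 and 0.11 log2 units above the Control mean, where LD 2 stood 0.86, 0.69 and 0.62 above and LD 3 1.13, 0.73 and 0.72 above. For the amino acid response and the tRNA synthetases LD 1 was not lower than the others. LD 3 was the lowest for neuronal lists, with rod phototransduction 0.65 log2 units below the Control mean, against 0.17 below on LD 1 and 0.23 below on LD 2. When array weights were estimated from the fit, LD 3 and Control 3 had the lowest of the 6 arrays (0.362 and 0.590) and LD 1 the highest (2.00). Antigen presentation means were 0.05 below the Control mean on LD 1 and 0.42 and 0.38 above it on LD 2 and LD 3. Hspb1, Tubb6, the lens list and the pigment epithelium list were among those with LD 2 as the lowest LD array, and the part of the lens signal in other results was not tested beyond the lens covariate.

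**Figure D4:**
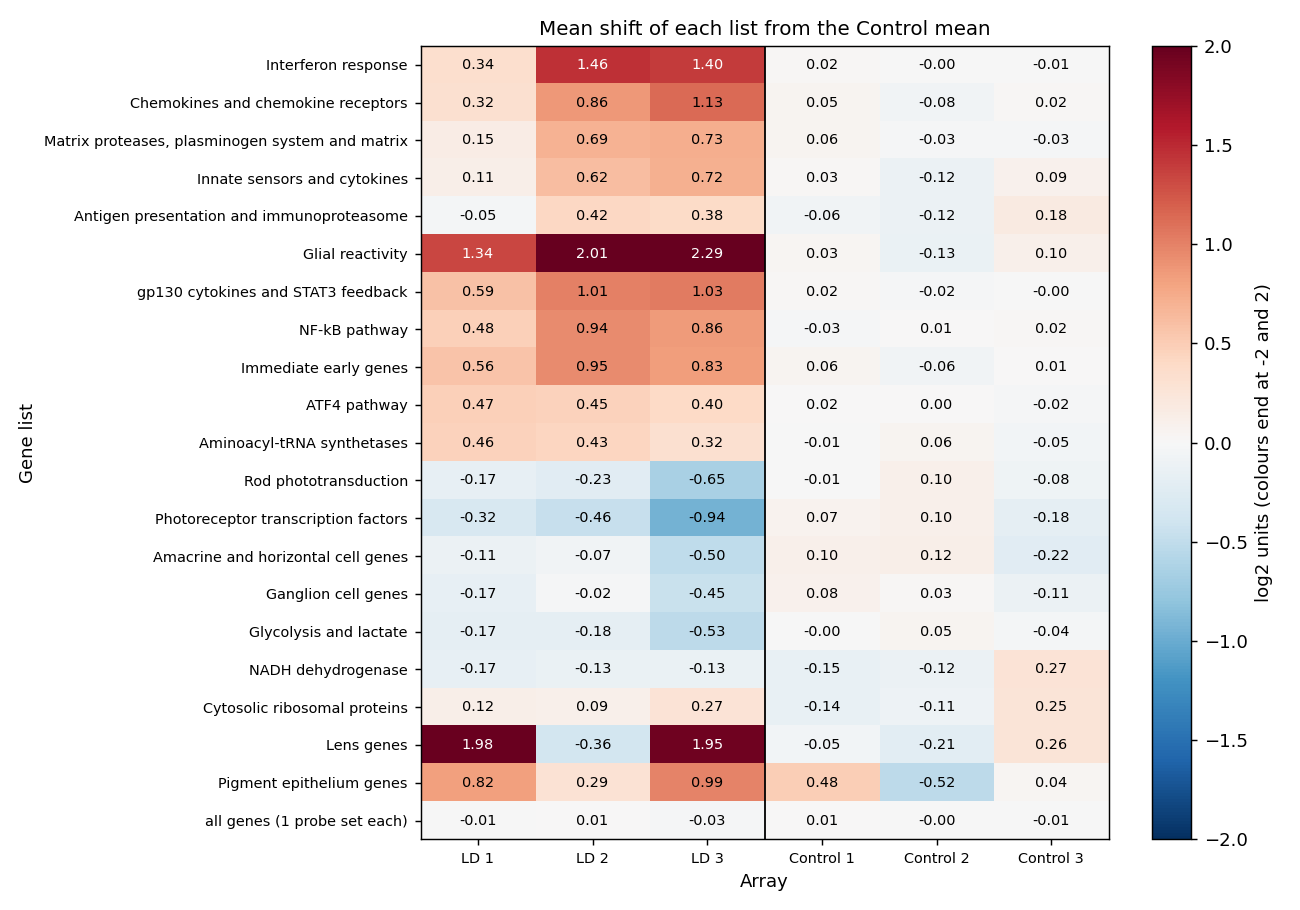
The mean shift of 20 gene lists and of all genes from the mean of the Control arrays (log2 units, colour and printed values) is shown for each LD array (left) and Control array (right). LD 1 is the palest LD array for the interferon list (0.34, against 1.46 and 1.40), LD 3 is the darkest blue for the rod list (-0.65), the amino acid lists are even, and the lens list is high on LD 1 and LD 3 and below Control on LD 2.

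The light effect was also measured in animals given a pretreatment, with other arrays for both light and its baseline. After saffron (SafLD minus Saffron), 612 probe sets were called (2.09%), and of the 325 probe sets called in LD minus Control 317 had the same sign and 202 were also called, which is 62.2% of the LD calls and 33% of the saffron calls. After photobiomodulation (PBM), daily red light (PBMLD minus PBM), 96 were called (0.329%), with 312 of the 325 of the same sign and 65 also called, which is 20% of the LD calls and 67.7% of the PBM calls. Since the 325 were chosen by their LD effect, their LD values lean high, and the median ratio of the pretreated to the LD effect was 0.827 with saffron and 0.55 with photobiomodulation. The test of the difference between light effects passed for 41 probe sets with saffron (0.14% of all) and 2 with photobiomodulation (0.00685%), among them 0 and 1 of the 325. Asns had log2 light effects of 1.91 in LD, 1.87 after saffron and 1.89 after photobiomodulation, and Optn had -0.94, -0.94 and -1.11. Ccl2 had log2 light effects of 5.26, 4.19 and 2.44 in the same order and Gbp2 3.75, 2.53 and 1.41, each with an SE of 0.84 and 0.58, and neither gene's difference between light effects passed.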

How the data were processed

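RNA of whole rat retina was extracted with Trizol and RNAqueous, labelled with the WT Sense Target kit and hybridised to Affymetrix Rat Gene 1.0 ST arrays, 3 arrays in each of 6 groups. The deposited log2 values were made by the authors with RMA (background correction, quantile normalization and median polish) in Affymetrix Expression Console 1.1.2800.19935, per the submitters' processing notes. Quantile normalization gives all arrays nearly the same distribution, so a shift of most transcripts in one direction would not be seen. No source used here names the genome build behind the probe sets.

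The values were fitted as deposited with limma 3.58.1 in R 4.3.3 (lmFit and eBayes) over all 18 arrays, which gave 12 residual and 5.05 prior degrees of freedom. LD minus Control was tested two-sided with Benjamini-Hochberg adjustment over 29214 probe sets. The study's methods set a t-test p and 2-fold, and that t-test was run as an alternative. Gene symbols came from the platform annotation. Lists used the brightest probe set of each gene, and probe sets with several symbols were named for no gene. The members, gene lists and tests were chosen with earlier results of these data known. Genes were named by rule: the 15 largest increases and decreases among called probe sets with groups apart, the 15 lowest p in each direction among calls of 2-fold or less, the 5 lowest p in each of 57 lists with those needed to say what a list holds, and the 5 largest changes without a symbol. Not all that met the rule are printed. Promoter windows, 250 bases before to 50 after each start, came from RefSeq on GRCr8. Fits were tested on simulated data with planted changes. On arrays there is no read depth, and the number of arrays limits the precision.

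Alternatives covered the spread estimate, array weights, normalization, a filter on dim probe sets (mean log2 below 5), the probe sets tested, the replicate number as a block, the lens level as a covariate and leaving out each array. The study's columns hold no comparison of its own, and every column of values was used in the fit.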

Additional observations from a re-analysis of the deposited data

Results flagged for a closer look

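The light effect differed without and with saffron for 41 probe sets (0.14% of 29214), tested as the difference between LD minus Control and SafLD minus Saffron. The differences ran from 1.20 to 3.62 on the log2 scale. None of the 41 was called in LD minus Control, where their differences ran from -0.10 to 0.78, and 0 of them had a gene symbol. They held 29 distinct patterns of values, since several probe sets repeat the same numbers. In 40 of the 41, every LD, Control and Saffron array lay above every SafLD, PBMLD and PBM array.

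With PBM, 2 probe sets (0.00685%) passed the same kind of test. Ldb2, a LIM domain binding cofactor of transcription, had log2 levels of 8.15, 8.15 and 8.20 in LD against 8.57, 8.53 and 8.47 in Control, and 8.25, 8.30 and 8.32 in PBMLD against 7.61, 7.53 and 7.27 in PBM. Its LD minus Control difference was -0.36 ± 0.11 (SE, limma adjusted p = 0.193), its PBMLD minus PBM difference was 0.82, and the difference between them was -1.18 ± 0.16 (limma adjusted p = 0.0303). Probe set 10782065, which has no symbol, had a light effect of 1.01 ± 0.14 in LD minus Control (limma adjusted p = 0.000867) and -0.34 in PBMLD minus PBM, which differed by 1.35 ± 0.20 (limma adjusted p = 0.0418). Groups of 3 arrays were not searched for outlying samples.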

How the results depend on the processing

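Beside the 325 calls, 155 of them past 2-fold, the LD and Control arrays fitted alone gave 136 (120 of the 325), array weights 622, the methods' t-test 2394 unadjusted and 0 after adjustment (0 also past 2-fold, limma giving 2799 at an unadjusted p under 0.05), and LD 2 as the only LD array, an alternative added after seeing the data, 188. At the study's own limits, an unadjusted p under 0.05 and more than 2-fold, the methods' t-test called 189 probe sets. Of these, 161 were higher in LD and 28 lower. Leaving out 1 array in the limma fit gave 146 to 517 calls and 91 to 293 past 2-fold, the highest without LD 1 and the lowest without LD 3. Calls lower in LD made up 24.6% of the total, against 37.6% with array weights, 51.2% with the unadjusted t-test, 15.9% with the lens covariate and 11.2% with LD 2 alone. The variance trend, median centring, quantile normalization, cyclic loess, the dim filter, testing probe sets with 1 symbol only and the lens covariate gave 298 to 378 calls. For the counts that moved, the cause was not tested. None of the 325 changed sign under any of these alternatives. Of 57 list medians, 14 changed sign under at least 1 alternative, of which 13 lay within 0.1 of 0 on the log2 scale. The other was the lens list (0.91), at -0.32 with LD 2 alone and -0.0199 with the lens covariate.

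The replicate number as a block gave 292 calls (166 past 2-fold, 269 of the 325). Deviations of same-numbered LD and Control arrays correlated at 0.022, 0.196 and 0.306. LD 1 correlated best with Control 2 (0.177), whereas LD 2 and LD 3 each correlated best with the Control array of their own number. Whether same-numbered arrays share more than a number was not tested. With the block 40 saffron and 0 PBM differences in light effect were called.

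For that difference, alternatives added after seeing the data gave 114 calls for saffron with array weights, 0 with probe sets of 1 symbol only and 37 to 119 without 1 array, the highest without LD 2. For PBM they gave 0 with cyclic loess, 0 with the lens covariate, 1 with probe sets of 1 symbol only and 0 to 7 without 1 array, the highest without LD 1.

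Differences that turned sign belonged to genes that were not called, and the cause was not tested. With LD 2 alone they were Slc32a1 (0.0499), Ece2 (0.0073), Bmp6 (0.0075), Ywhaz (0.0803) and the lens genes Bfsp1 (-0.1429), Lim2 (-0.5777), Crybb3 (-0.1462), Cryba4 (-0.3168) and Cryba2 (-0.1778). With the lens covariate they were Cryba4 (-0.0199) and Ywhaz (0.0298). Leaving out 1 array moved Ece2 between -0.2737 and 0.0055 and Ywhaz between -0.2337 and 0.0293. The median difference over all probe sets was -0.0186, against -0.0282 after median centring and -0.0203 after quantile normalization.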
